A study of Mus musculus with 32 samples.

Results

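Bone morphogenetic protein (BMP) signalling was followed at 10 of its genes, chosen by symbol: the ligands Bmp2, Bmp4 and Bmp6, the regulatory SMADs Smad1, Smad5 and Smad9, the inhibitory SMAD Smad6, and the target genes Id1, Id2 and Id3. These 10 were chosen with earlier results of these data known. They were 10 of 41388 genes counted in RNA sequencing of 32 libraries of primary mouse chondrocytes. Mice at postnatal day 21 gave the cells, from the cartilage of their femoral heads, and the cells were collected without passaging after 4 days in medium with 10% serum. LG/J is an inbred strain whose wounds of the ear and of cartilage heal well, and SM/J is an inbred strain that heals poorly. The labels state no treatment and no engineered allele in either strain. The 4 groups were LG/J females, LG/J males, SM/J females and SM/J males, with 8 libraries each, numbered 1 to 8. Nothing in the labels ties a library to its own animal or culture, so the p-values below speak of the spread between libraries only, and this spread may be technical.

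BMP ligands bind pairs of type I and type II receptors on the cell surface. The receptors phosphorylate Smad1, Smad5 and Smad9, which enter the nucleus with Smad4 and bind DNA, and among the genes they induce most directly are the ID genes and Smad6. ID proteins bind basic helix-loop-helix transcription factors and keep them from DNA, and Smad6 is a feedback inhibitor that holds back the regulatory SMADs. In cartilage the pathway drives chondrocyte formation and maturation, and protein phosphorylation, through which it acts, is not seen in RNA.

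Levels are CPM, reads of a gene scaled to a fixed library total, after TMM scaling, a correction for library composition. Differences between the strains are log2 fold changes of LG/J minus SM/J ± standard error (SE) from edgeR's quasi-likelihood test, with Benjamini-Hochberg adjustment across the 16136 genes that passed a filter on low counts. The threshold for a call was an adjusted p of 0.05. All 10 genes passed the filter. In bulk RNA, fewer cells of a type and less RNA per cell cannot be told apart.

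Total counts were 15840330 to 25571598 per library. Of 8 chondrocyte markers, all were kept, and their summed level was 8558 to 22343 CPM in SM/J and 14277 to 32487 CPM in 14 of the 16 LG/J libraries. Both LG/J libraries numbered 1 stood apart, with sums of 1558 CPM in the female and 2591 CPM in the male, so calls of the 10 genes and counts over gene lists that change without these libraries are given both ways. In 6 libraries (LG/J females 4 and 5, SM/J females 3 and 4, SM/J males 2 and 3) transcripts of both sexes were present: Ddx3y, a Y-linked gene, was at 20.3 to 84.5 CPM in the 4 female ones and at most 1.34 CPM in the other 12 females, before TMM scaling. In 6 pairs within groups the libraries were closer to each other than in the other pairs, at 3.59 to 4.08 times the squared difference that sampling noise gives, against a median of 9.99 over 112 pairs. The next pair was at 4.54, so the boundary is not sharp. In LG/J the close pairs were females 4 with 5 and 7 with 8 and males 2 with 3 and 4 with 5. In SM/J they were females 3 with 4 and males 6 with 7.

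The 250 bases before the start site are shown for 4 of the genes. These are Bmp6, which had the largest strain difference, and Smad9, Smad6 and Id2, which carry GGCGCC or GTCTAGAC. Smad5 also carries GGCGCC and is not shown. SMAD complexes are known to bind GC-rich elements such as GGCGCC and SMAD boxes such as GTCT. The sequences are RefSeq promoter windows on GRCm38.p6, which is C57BL/6J and not either strain studied here, so they say nothing of differences between LG/J and SM/J. They are written 5′ to 3′ on the gene's strand, with GGCGCC or GTCTAGAC in capitals. Smad6 includes the first 10 bases after the start, because its match spans the start site.
Bmp6, chr13:38345466-38345715, plus strand: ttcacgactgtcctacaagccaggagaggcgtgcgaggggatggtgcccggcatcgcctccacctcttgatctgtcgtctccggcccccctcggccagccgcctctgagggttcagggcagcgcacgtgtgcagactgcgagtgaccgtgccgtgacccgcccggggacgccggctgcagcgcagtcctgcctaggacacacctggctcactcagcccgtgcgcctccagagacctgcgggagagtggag
Smad9, chr3:54755332-54755581, plus strand: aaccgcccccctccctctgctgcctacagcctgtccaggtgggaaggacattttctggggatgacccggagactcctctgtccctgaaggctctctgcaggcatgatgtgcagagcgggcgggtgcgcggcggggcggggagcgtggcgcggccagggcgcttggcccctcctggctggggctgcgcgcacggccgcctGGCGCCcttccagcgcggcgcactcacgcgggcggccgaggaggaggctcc
Smad6, chr9:64022050-64022309, minus strand: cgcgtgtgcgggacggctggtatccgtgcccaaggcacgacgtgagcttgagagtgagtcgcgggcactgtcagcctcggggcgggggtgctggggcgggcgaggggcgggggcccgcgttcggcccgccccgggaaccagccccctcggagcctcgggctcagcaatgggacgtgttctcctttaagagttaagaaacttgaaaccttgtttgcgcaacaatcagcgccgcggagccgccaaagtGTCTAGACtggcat
Id2, chr12:25096093-25096342, minus strand: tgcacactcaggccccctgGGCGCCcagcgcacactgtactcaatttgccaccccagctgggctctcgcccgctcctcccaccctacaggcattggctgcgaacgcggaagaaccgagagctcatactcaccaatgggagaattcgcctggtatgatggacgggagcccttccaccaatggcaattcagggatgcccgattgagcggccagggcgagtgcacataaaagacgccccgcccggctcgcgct
Windows of 250 bases before to 50 bases after the start were matched for 8 of the 10 genes, with 10 windows, and not for Bmp2 and Id1. GGCGCC, which reads the same on both strands, lay 51 bases before the start in Smad9 and 231 bases before it in Id2, and it was also in windows of Smad5. It is in 11.9% of all 32817 windows. GTCT, on either strand, was in 7 of the 8 genes and in 88% of all windows, so its presence sets these genes apart from few others. The SMAD box followed by its reverse complement, GTCTAGAC, lay across the start of Smad6 and is in 0.213% of all windows; it was searched for after the windows had been read and contains GTCT on both strands. GGCGCC followed after 5 bases by GTCT was in 0.0731% of all windows and in none of these genes. A match is a description of these letters, not of binding.

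Between the strains, 4 of the 10 genes were higher in LG/J (Bmp2, Bmp6, Smad1 and Smad5) and 4 were lower (Bmp4, Smad6, Smad9 and Id3), and Id1 and Id2 were not called. Over all genes tested, 16.4% were called higher and 13.5% lower. The 10 genes were chosen with earlier results of these data known, so setting them beside these shares is no test. The median log2 fold change of the 10 genes was -0.19, against 0.02 over all genes tested. Without both LG/J libraries numbered 1, Bmp6, Smad1 and Smad5 were called higher and Smad6, Id1 and Id3 lower, against 17.1% called higher and 15.1% lower of the 16229 genes then tested. The 5 genes Bmp6, Smad1, Smad5, Smad6 and Id3 were called under each of the 10 other settings tried and with each library left out in turn. Over all genes these settings called 3603 to 6054, and how many genes stayed called throughout was not counted. Calls of Bmp2, Bmp4, Smad9 and Id1 changed with some of these settings or left-out libraries.

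**Figure D1:**
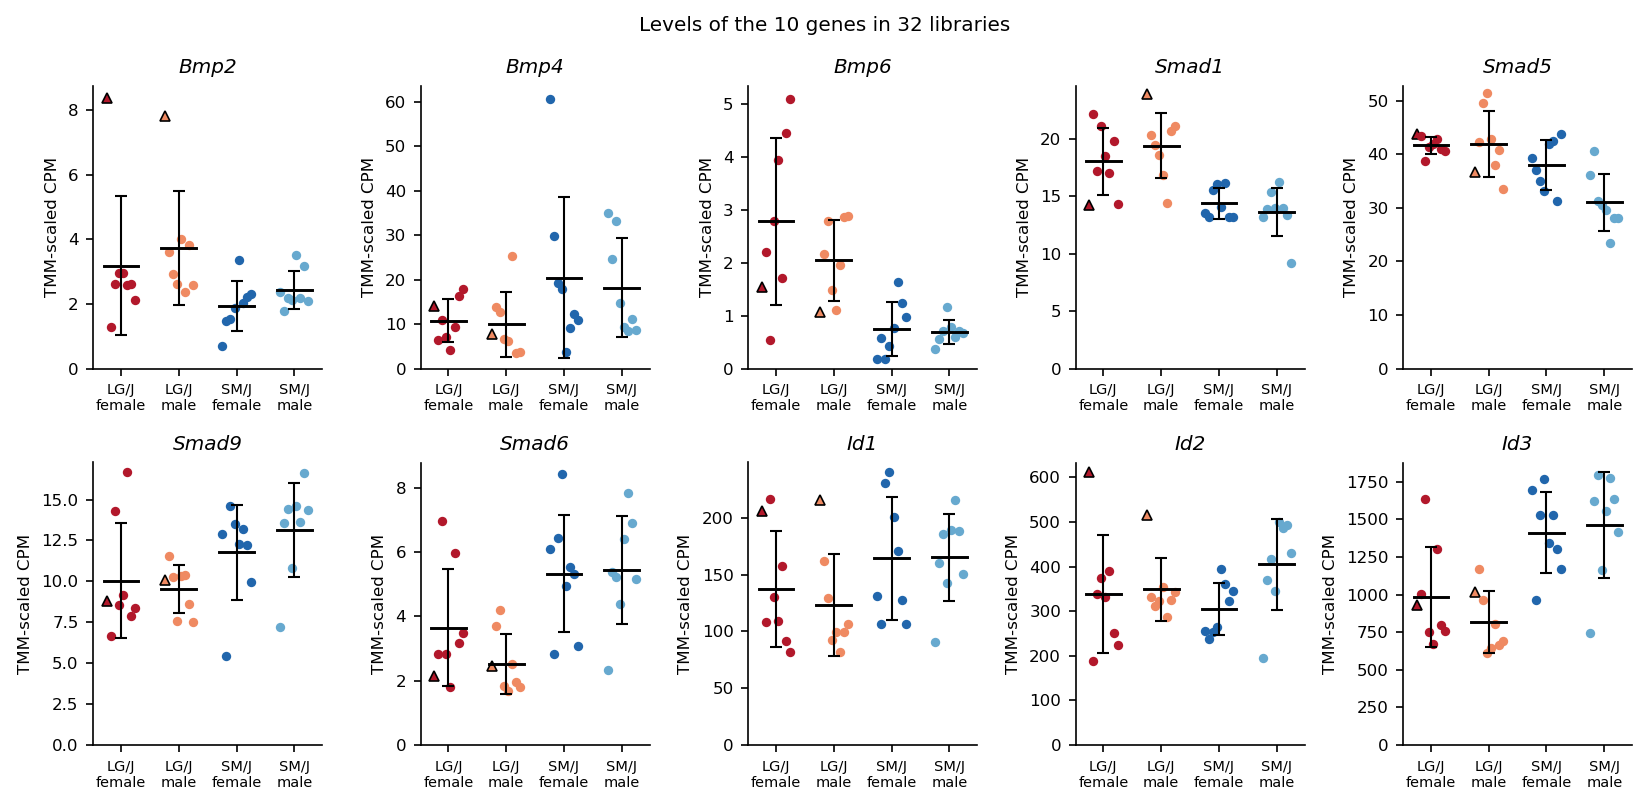
Levels of the 10 genes in each library, in TMM-scaled CPM on axes from 0, by strain and sex. Points are libraries, outlined triangles are both LG/J libraries numbered 1, and bars are the mean ± SD of 8 libraries; for Bmp6 the 16 SM/J libraries lie at or below 1.63 CPM, and 11 of 16 LG/J libraries lie above them.

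Bmp6, a ligand of the osteogenic subgroup that acts in maturing cartilage and in iron sensing, showed the largest difference of the 10 genes. It ran from 0.535 through a median of 2.18 to 5.1 CPM in LG/J and from 0.182 through 0.693 to 1.63 CPM in SM/J, where counts were 4 to 37 reads per library. Of the 16 LG/J libraries, 11 were above every SM/J library and 15 above the SM/J median, and LG/J female 3 was the exception. In LG/J the mean was 2.41 ± 1.26 CPM and in SM/J it was 0.722 ± 0.385 CPM (SD, n = 16), a log2 fold change of 1.72 ± 0.28 or 3.29-fold (edgeR adjusted p = 1.31e-05). Bmp6 is a gene of 2410 counted bases at chr13:38345716-38499728 on the plus strand of GRCm38.

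Bmp4, a ligand close to Bmp2 in sequence that is made by mesenchymal and perichondrial cells, went the other way. It ran from 3.44 through a median of 8.51 to 25.3 CPM in LG/J and from 3.66 through 13.5 to 60.7 CPM in SM/J. The strains overlapped widely, with 4 of 16 SM/J libraries above every LG/J library and 1 LG/J library below every SM/J library. Bmp4 had a log2 fold change of -0.90 ± 0.33 (edgeR adjusted p = 0.0383). The call was lost in 7 of the 10 other settings, with -0.90 ± 0.35 (adjusted p = 0.052) without both LG/J libraries numbered 1 and -0.66 ± 0.38 (adjusted p = 0.222) without the 6 libraries of mixed sex transcripts, and in 13 of 32 fits, each without 1 library. In LG/J those libraries were females 2, 4 and 5 with males 1, 4, 5, 7 and 8, in SM/J they were females 1 and 2 with males 1, 2 and 3, and the adjusted p reached 0.105. Bmp4 lies at chr14:46383520-46390669 on the minus strand, and the genes Gm15217 and Gm15222 overlap it on the other strand at no more than 0.498 and 0.524 CPM; the counting's strand setting is not given, so reads of these genes and of Bmp4 cannot be told apart there.

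Bmp4 was set beside transcripts of fibroblast type, library by library. A list of 6 markers of fibroblasts and of chondrocytes that lose their character (Col1a1, Col1a2, Col3a1, Acta2, Tagln and Twist1) had a summed level of 232 to 3970 CPM in LG/J and 1031 to 5686 CPM in SM/J. Of its 6 genes, 3 were lower in LG/J and none higher, against 13.5% lower and 16.4% higher of all genes tested. The 7 SM/J libraries with the most Bmp4 were the 7 with the highest sum of this list, and in LG/J the top 7 by each shared 6 libraries. In SM/J this order followed the library numbers. Every SM/J library numbered 1 to 4 had at least 14.7 CPM of Bmp4, and those numbered 5 to 8 had at most 12.2 CPM. The marker sums split likewise, at 2223 CPM or more against 2154 CPM or less. What the numbers stand for is not in the labels. There were exceptions in LG/J: female 1 was among the higher in Bmp4 (14 CPM) with the lowest sum of all 32 libraries (232 CPM), and female 2 had the highest sum of its strain (3970 CPM) with 6.4 CPM of Bmp4, which ranked 12 of 16. LG/J male 6, which had the most Bmp4 in its strain, also had the highest summed level of 8 macrophage markers, at 1585 CPM, while the rest of LG/J lay between 31.1 and 533 CPM. SM/J female 1 had the highest Bmp4 of all, 60.7 CPM, with a fibroblast marker sum of 5325 CPM. The part of these cell types in the Bmp4 result was not tested.

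Bmp2, which drives chondrocyte and osteoblast differentiation and responds to inflammatory signals, was low in both strains. It ran from 1.29 through a median of 2.78 to 8.37 CPM in LG/J and from 0.709 through 2.16 to 3.52 CPM in SM/J, from 15 to 136 reads per library. The highest values were those of both LG/J libraries numbered 1, at 8.37 CPM in the female and 7.82 CPM in the male, while the other 14 LG/J libraries did not pass 4.01 CPM. The log2 fold change of Bmp2 was 0.66 ± 0.21 (edgeR adjusted p = 0.0173), and without both libraries it was 0.35 ± 0.16 (adjusted p = 0.0906), so the call ended with them. It was also lost without the 6 libraries of mixed sex transcripts (0.60 ± 0.26, adjusted p = 0.0944). Both libraries numbered 1 had summed levels of 5 early response genes of 153 and 147 CPM, and the rest of LG/J did not pass 71.4 CPM; the part of this in the Bmp2 result was not tested. Bmp2 lies at chr2:133552159-133562885 on the plus strand.

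Per length of the counted exons, Bmp4 was the most abundant of the 3 ligands in both strains, but by a smaller share in LG/J. It made up 66.5 ± 13.9% of their summed level per length in LG/J and 85.5 ± 10.7% in SM/J (SD, n = 16). Bmp6 made up 17 ± 10.2% in LG/J and 4.74 ± 3.69% in SM/J, and Bmp2 16.5 ± 8.84% and 9.72 ± 7.72%. The Bmp4 share ran from 40.6 to 88.5% across LG/J libraries and from 56.6 to 99% across SM/J libraries. These shares describe the mixture and were given no test.

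Smad1, a regulatory SMAD that carries the BMP signal into the nucleus, separated the strains more than the other SMADs did in the number of libraries that did not overlap. It ran from 14.3 through a median of 19.1 to 23.9 CPM in LG/J and from 9.22 through 13.9 to 16.2 CPM in SM/J. All 16 LG/J libraries were above the SM/J median, and 13 were above every SM/J library. In LG/J the mean was 18.8 ± 2.88 CPM and in SM/J it was 14 ± 1.72 CPM, a log2 fold change of 0.42 ± 0.08 or 1.34-fold (edgeR adjusted p = 6.27e-05). Smad1 is at chr8:79338395-79399518 on the minus strand.

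Smad5, which shares the role of Smad1 and is the most abundant of the 3 per length, was also higher in LG/J by a small step. It ran from 33.5 through a median of 41.6 to 51.3 CPM in LG/J and from 23.5 through 34.1 to 43.8 CPM in SM/J. Of the SM/J libraries, 8 were below every LG/J library, and 15 of 16 LG/J libraries were above the SM/J median. Its log2 fold change was 0.28 ± 0.07 or 1.22-fold (edgeR adjusted p = 0.00127). Smad5 is at chr13:56703010-56742377 on the plus strand, and 3 short genes within it (Gm27301, Gm27834 and Gm27271) had at most 0.096 CPM.

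Smad9, the least studied regulatory SMAD, which signals weakly and can also dampen the pathway, was lower in LG/J. It ran from 6.69 through a median of 8.97 to 16.7 CPM in LG/J and from 5.46 through 13.4 to 16.6 CPM in SM/J. Of the LG/J libraries, 14 were below the SM/J median, and LG/J females 3 and 6 stood high at 14.3 and 16.7 CPM. SM/J female 2 and SM/J male 1 stood low at 5.46 and 7.23 CPM. The log2 fold change was -0.34 ± 0.13 (edgeR adjusted p = 0.0439), close to the threshold: it was lost in 5 of 10 other settings, among them the fit lacking both LG/J libraries numbered 1, where it had -0.33 ± 0.14 (adjusted p = 0.0611), and in 21 of 32 fits with 1 library left out (adjusted p up to 0.0737). It held in the other 11 fits, which in LG/J left out females 3 and 6 and males 1, 2, 3, 5 and 6, and in SM/J females 2 and 8 and males 1 and 4. Smad9 is at chr3:54755582-54801257 on the plus strand.

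The make-up of the regulatory SMADs was compared per length. Smad1 made up 30.2 ± 4.4% of their summed level per length in LG/J and 25.8 ± 2.78% in SM/J. Smad5 made up 52.7 ± 4.18% and 49.4 ± 6.39%, and Smad9 17.1 ± 4% and 24.8 ± 5.87% (SD, n = 16 each). The Smad9 share reached 33.7% in an SM/J male and did not pass 26.4% in LG/J. No test was run on these shares. Without both LG/J libraries numbered 1, the Smad9 share in LG/J was 17.1 ± 4.3% (n = 14).

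**Figure D2:**
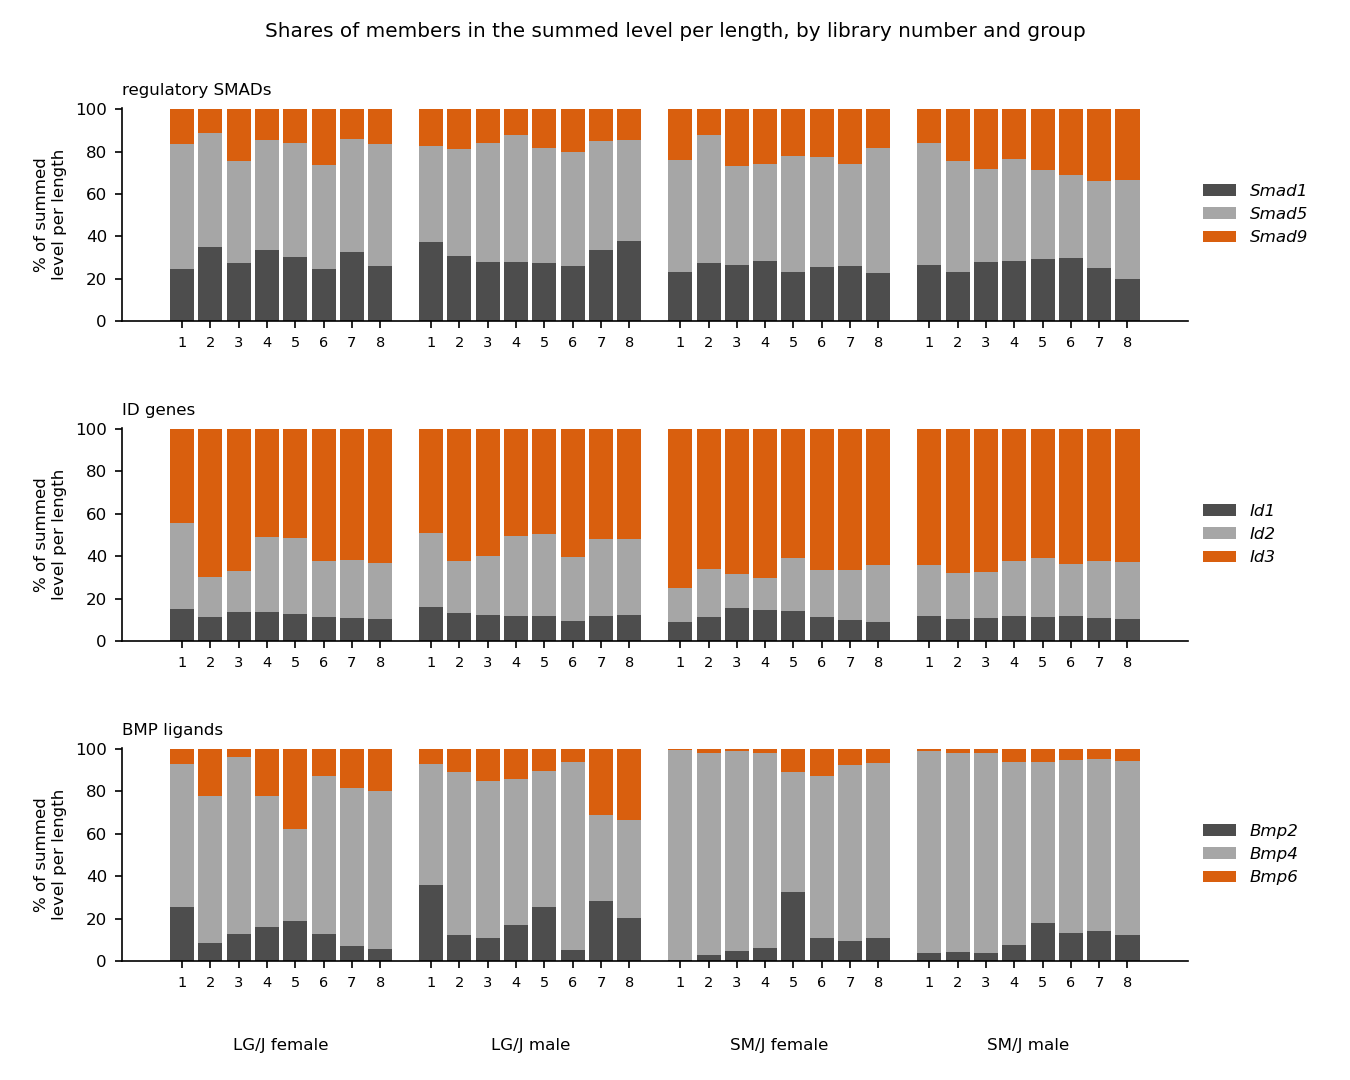
Shares of each gene in the summed level per length of its family, in percent, for regulatory SMADs (top), ID genes (middle) and BMP ligands (bottom), with 1 bar per library by group and number. The orange Smad9 and Id3 shares are larger in SM/J (means 24.8% and 65.5%) than in LG/J (17.1% and 56.6%), and the orange Bmp6 share is larger in LG/J (17% against 4.74%).

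Smad6, the inhibitory SMAD that is itself induced by BMP signalling, was lower in LG/J. It ran from 1.69 through a median of 2.67 to 6.95 CPM in LG/J and from 2.32 through 5.34 to 8.44 CPM in SM/J. Of the LG/J libraries, 14 were below the SM/J median and 6 were below every SM/J library. In LG/J the mean was 3.09 ± 1.52 CPM and in SM/J it was 5.39 ± 1.69 CPM, a log2 fold change of -0.83 ± 0.19 (edgeR adjusted p = 0.00125). LG/J females 3 and 6 were the exceptions, at 6.95 and 5.96 CPM, within the upper part of the SM/J range. Smad6 is at chr9:63953076-64022059 on the minus strand; its promoter, printed above, is the only one of the 10 windows with this doubled SMAD box.

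Id3, the ID gene with the highest level per length here and a direct target of the regulatory SMADs, was lower in LG/J. It ran from 610 through a median of 800.4 to 1638 CPM in LG/J and from 745 through 1528 to 1793 CPM in SM/J. Of the LG/J libraries, 15 were below the SM/J median and 5 below every SM/J library, and LG/J female 3 was the only one above it. In LG/J the mean was 902 ± 279 CPM and in SM/J it was 1439 ± 306 CPM, a log2 fold change of -0.68 ± 0.13 (edgeR adjusted p = 0.000133). Counts per library were 13294 or more, so counting error is small beside the spread between libraries. Id3 is at chr4:136143497-136145755 on the plus strand.

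Id1, the classical target whose promoter is used as a reporter of BMP signalling, was lower in mean in LG/J but not called. It ran from 81.9 through a median of 108.7 to 217 CPM in LG/J and from 91 through 166 to 241 CPM in SM/J. LG/J females 1 and 3 and LG/J male 1 were high, at 206, 217 and 216 CPM, and 13 of 16 LG/J libraries were below the SM/J median. The log2 fold change was -0.34 ± 0.16 (edgeR adjusted p = 0.11, 95% interval -0.67 to -0.01). Without both LG/J libraries numbered 1 it was -0.47 ± 0.15 and called (adjusted p = 0.0149). It was also called with limma voom and quality weights, and without LG/J female 3 or without LG/J male 1, where the adjusted p went down to 0.0347. Id1 is at chr2:152736251-152737410 on the plus strand.

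Id2, which in cartilage and other tissues also responds to signals other than BMP, did not separate the strains. It ran from 188 through a median of 331 to 612 CPM in LG/J and from 196 through 354 to 500.5 CPM in SM/J. The highest values were those of both LG/J libraries numbered 1, at 612 and 515 CPM, and these were the only LG/J libraries above every SM/J library. The log2 fold change was -0.03 ± 0.13 (edgeR adjusted p = 0.889), and its 95% interval, -0.30 to 0.24, does not include a difference as large as that of Id3. Without both libraries it was -0.17 ± 0.11 (adjusted p = 0.27). Id2 is at chr12:25093801-25096092 on the minus strand, and its promoter is printed above.

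Per length, Id3 was the most abundant ID gene in every group, ahead of Id2 and then Id1. Id3 made up 56.6 ± 7.48% of their summed level per length in LG/J and 65.5 ± 3.74% in SM/J. Id2 made up 31 ± 6.85% and 22.9 ± 4.06%, while Id1 stayed at 12.4 ± 1.64% and 11.6 ± 1.91% (SD, n = 16 each; no test). Over the 10 genes, the order of mean levels per length, in TMM-scaled RPKM, was in both strains Id3 (504 in LG/J and 803 in SM/J), Id2 (271 and 280) and Id1 (113 and 142), far above the rest. Below them stood Smad5 (5.63 and 4.65) and Bmp4 (4.65 and 8.68), with Bmp4 above Smad5 in SM/J and its spread (SD 2.7 and 6.55) covering that difference in both strains. Smad1 (3.23 and 2.41) and Smad9 (1.83 and 2.32) came next and differed by less than 1 SD in SM/J. Bmp6 (1 and 0.299), Bmp2 (0.972 and 0.614) and Smad6 (0.963 and 1.68) were lowest, and in LG/J these 3 lay within 1 SD of each other.

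**Figure D3:**
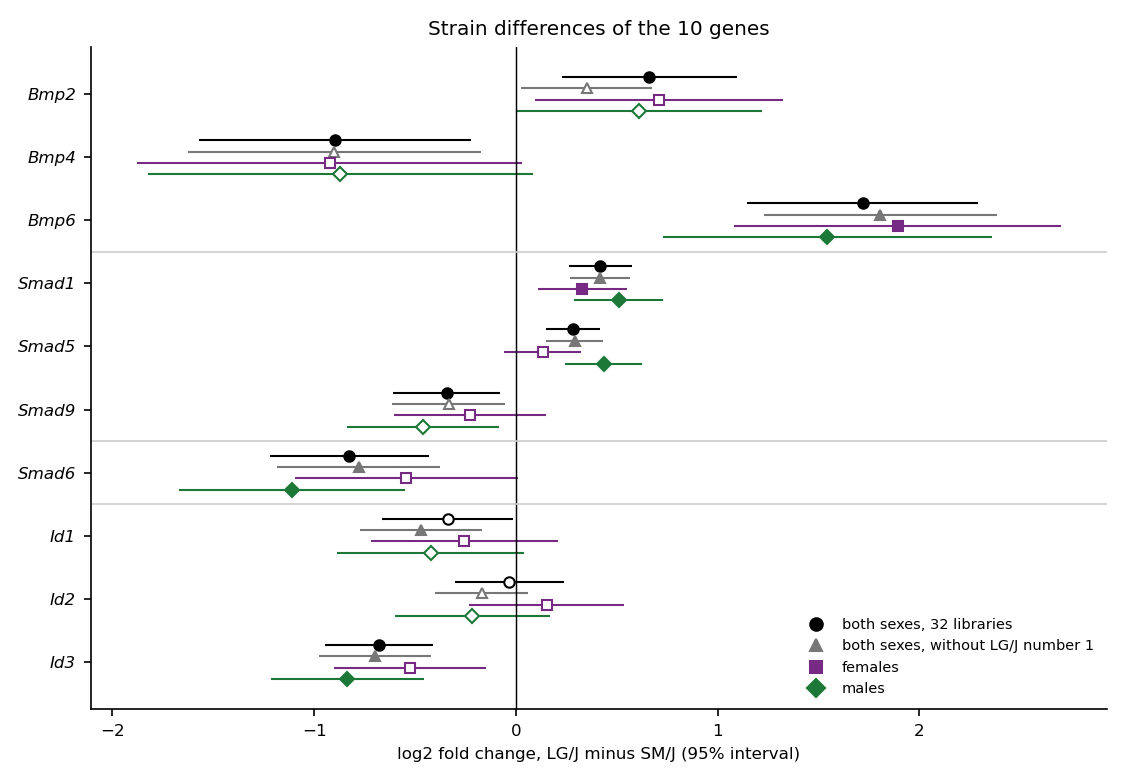
Strain differences of the 10 genes as log2 fold changes of LG/J minus SM/J with 95% intervals, over both sexes with and without both LG/J libraries numbered 1, and in each sex. Filled symbols passed an adjusted p of 0.05; Bmp6 lies furthest right (1.72 over both sexes), and Smad6 (-0.83), Id3 (-0.68) and Bmp4 (-0.90) lie left of 0.

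Smad6, Smad9 and Id3, which are 3 of the 4 genes called lower, were compared library by library within each strain. In LG/J, females 3 and 6 had the highest 2 values of all 3 genes. The 5 LG/J libraries with the least Smad6 (female 5 and males 4, 5, 7 and 8) were also the 5 with the least Id3, at 610 to 694 CPM; females 4 and 5 and males 4 and 5 are close pairs. In SM/J, female 2 and male 1 had the lowest 2 values of Smad6, Smad9 and Id3. The same held for Id1 and Id2, which were not called between the strains over all 32 libraries. At the other ends Smad9 parted from Smad6 and Id3. Its lowest 2 libraries in LG/J and its highest 2 in SM/J were in neither case among those of Smad6 or of Id3. Its lowest 5 in LG/J shared 2 with each of them, and the lowest 5 of Id1 in LG/J also shared 2 with each. Bmp4, the other gene called lower, did not share this order. Counted from the highest of 16, SM/J female 2 and male 1 ranked 4 and 2 in Bmp4, and LG/J females 3 and 6 ranked 7 and 8. SM/J male 1 was at 2.32 CPM of Smad6, 7.23 CPM of Smad9 and 745 CPM of Id3, each inside the LG/J range. LG/J females 3 and 6 had the lowest chondrocyte marker sums of the 14 LG/J libraries that did not stand apart, at 14277 and 17099 CPM. LG/J female 1 and male 1, with lower sums (1558 and 2591 CPM), ranked 11 and 10 of 16 in Smad6, 9 and 7 in Smad9 and 7 and 4 in Id3. SM/J female 2 had the highest macrophage marker sum of its strain, at 1125 CPM. Its chondrocyte marker sum was 16106 CPM, beside a strain median of 16332 CPM. SM/J male 1 had the highest chondrocyte marker sum of its strain, at 22343 CPM. The part of these markers in the pattern was not tested.

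**Figure D4:**
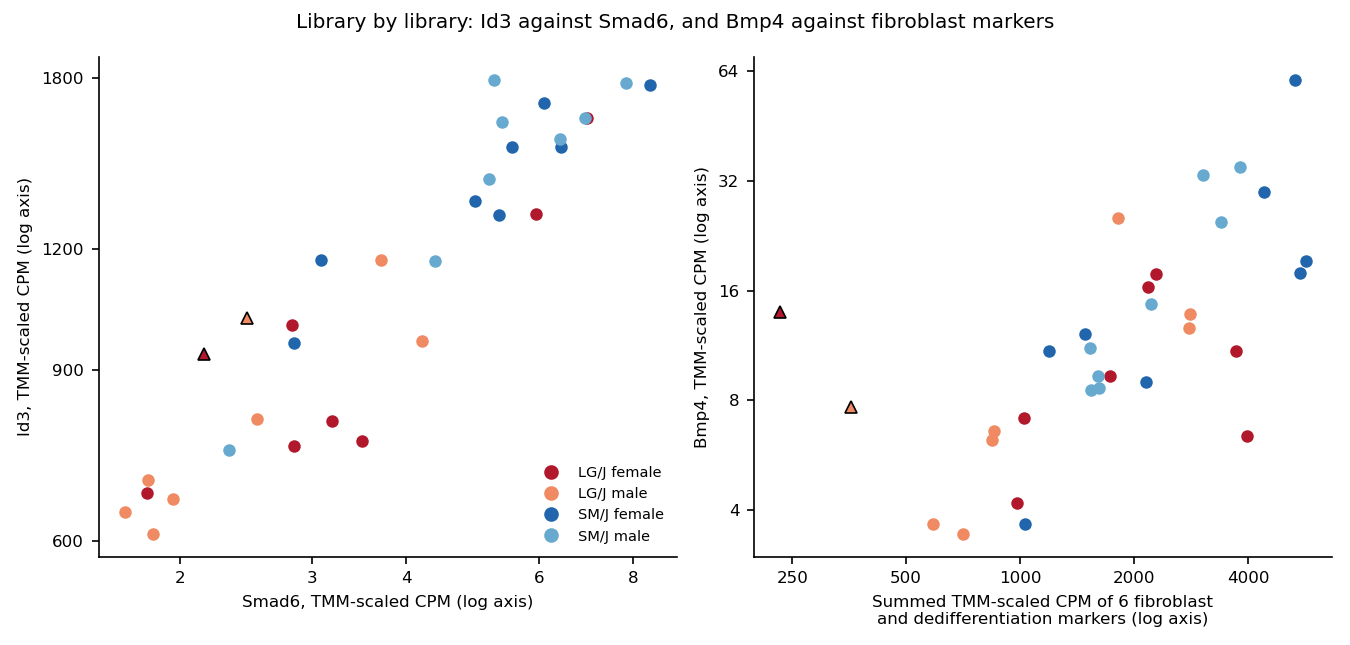
Left, Id3 against Smad6 in TMM-scaled CPM on log axes; right, Bmp4 against the summed CPM of 6 fibroblast and dedifferentiation markers on log axes; each point is 1 of 32 libraries, and outlined triangles are both LG/J libraries numbered 1. On the left, 2 LG/J females (6.95 and 5.96 CPM of Smad6) sit among the SM/J libraries and SM/J male 1 (2.32 CPM) among the LG/J libraries; on the right, SM/J female 1 is highest at 60.7 CPM of Bmp4.

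By sex, the strain contrast called 2 of the 10 genes in females, against 13.4% of all genes tested, and 5 in males, against 22.3%. Bmp6 was higher in LG/J in both, by 1.89 ± 0.40 in females (edgeR adjusted p = 0.000797) and 1.54 ± 0.40 in males (adjusted p = 0.00465). Smad1 was likewise higher in both, by 0.33 ± 0.11 (adjusted p = 0.0367) and 0.51 ± 0.11 (adjusted p = 0.000683), though the call in females was lost in 3 of 10 other settings and in 14 of the 32 fits with 1 library left out (adjusted p up to 0.109). Those libraries were LG/J females 2, 4, 5 and 7 with LG/J males 2, 3, 4 and 7, and SM/J females 1, 2, 3, 5, 7 and 8. Smad5 was called in males (0.44 ± 0.09, adjusted p = 0.00081) and had a log2 fold change of 0.13 ± 0.09 in females (adjusted p = 0.42). Smad6 was called lower in males (-1.11 ± 0.27, adjusted p = 0.00324) and had -0.54 ± 0.27 in females (adjusted p = 0.209). Id3 was called lower in males (-0.84 ± 0.19, adjusted p = 0.00108) and had -0.52 ± 0.18 in females (adjusted p = 0.0553), where it was called in 3 of 10 other settings. It was also called in females in the fits that in LG/J left out females 3 and 6 and males 2 and 4, and in SM/J females 2 and 8 and male 1, 1 at a time (adjusted p down to 0.00678). In males, Smad9 had -0.46 ± 0.18 (adjusted p = 0.0704) and was called with DESeq2 (adjusted p = 0.0494), with limma voom (adjusted p = 0.0153) and without SM/J female 2 or SM/J male 1 (adjusted p down to 0.0207). Id1 in males had -0.42 ± 0.23 (adjusted p = 0.19), and it was called in the fit lacking both LG/J libraries numbered 1, at -0.59 ± 0.21 (adjusted p = 0.0401), and with limma voom (adjusted p = 0.0105).

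A call in 1 sex is no sign that the sexes differ, and the test of that difference called none. The strain contrast differed between sexes in 0 of the 10 genes by edgeR, by DESeq2 or by limma voom. Of the 16136 genes tested, edgeR called 1 (0.0062%), DESeq2 55 and limma voom 256. At an unadjusted p under 0.05 by edgeR there was 1 of the 10 genes, Smad5. Its contrast was larger in males by 0.30 ± 0.13 on the log2 scale (edgeR unadjusted p = 0.0285, adjusted p = 0.514). Males and females themselves, over both strains, differed in 0 of the 10 genes by the same 3 tools. Of all genes tested, edgeR called 558 (3.46%), DESeq2 1029 and limma voom 1734. Again 1 of the 10 genes, Smad5, was under an unadjusted p of 0.05 by edgeR. Its male minus female log2 fold change was -0.14 ± 0.07 (edgeR unadjusted p = 0.0379, adjusted p = 0.236). For Bmp4 and Bmp6 the 95% intervals of the male minus female difference, -0.82 to 0.53 and -0.83 to 0.30, leave room for sizeable differences.

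Another 50 genes of the pathway were listed by role, of which 47 passed the filter; 9 were higher in LG/J and 7 lower, against 16.4% and 13.5% of all genes tested. Their median log2 fold change was 0.16, against 0.02 over all genes, and 31 of the 47 were positive. Without both LG/J libraries numbered 1, 11 were higher and 8 lower, the median was 0.08 and 25 were positive. Among 9 other ligands, 6 were kept (Gdf7, Gdf2 and Bmp10 were not), 2 were higher and 1 lower, with a median of 0.56 and 5 positive values. The sign of that median turned without both LG/J libraries numbered 1, to -0.17 with 3 positive values, and 2 ligands were higher and 2 lower. Bmp5, a ligand of the same subgroup as Bmp6, was lower by edgeR (-0.53 ± 0.14, adjusted p = 0.00319). Bmp8a was higher (1.18 ± 0.36, adjusted p = 0.0129) at low levels, 0.189 to 4.07 CPM in LG/J. Bmp3, a ligand that opposes the others, was higher (0.85 ± 0.32, adjusted p = 0.0414), a call lost in 3 of 10 other settings and in 20 of 32 fits with 1 library left out (adjusted p up to 0.0901). It held in the other 12, which in LG/J left out females 1, 2, 3, 6 and 7 and males 1, 2 and 5, and in SM/J females 2, 7 and 8 and male 1.

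Gdf5, the joint-forming ligand, was chosen for mention after its values were seen. Its log2 fold change was 0.42 ± 0.45 (edgeR adjusted p = 0.527) over all libraries and -0.94 ± 0.19 (adjusted p = 0.000231) without both LG/J libraries numbered 1. These were at 21.7 and 22.1 CPM of Gdf5, while the rest of LG/J did not pass 2.64 CPM and SM/J ran from 1.01 to 6.84 CPM. With either of these libraries left out alone, the change was -0.33 (female) or -0.19 (male) and not called.

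Of 11 receptors and co-receptors, all were kept, 2 were higher, 2 lower and 7 not called, with a median of 0.07; without both LG/J libraries numbered 1, 3 were higher and 2 lower, with a median of 0.12. Bmpr1b, the type I receptor of condensing cartilage that also binds Gdf5, was higher in LG/J (1.15 ± 0.26, edgeR adjusted p = 0.000862), from 3.43 through a median of 5.99 to 14.8 CPM against 0.762 through 2.83 to 8.61 CPM in SM/J. Eng, a co-receptor known from endothelial cells and also made by mesenchymal cells, was lower (-0.66 ± 0.10, adjusted p = 2.95e-06), from 5.97 to 14.9 CPM against 10.7 to 26.2 CPM. Of 6 endothelial markers, 4 were kept and none called, with summed levels of 1.62 to 10.1 CPM in LG/J and 1.48 to 9.66 CPM in SM/J, and Cdh5 had medians of 0.142 and 0.0801 CPM. Rgma, a co-receptor that strengthens BMP signalling, was higher (0.46 ± 0.16, adjusted p = 0.0232), a call lost in 2 of 10 other settings, with adjusted p of 0.23 without the 6 libraries of mixed sex transcripts, and without LG/J female 4 (adjusted p = 0.0555).

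The extracellular antagonists and modulators, most of which bind ligands outside the cell, held 14 genes, all kept; 4 were higher, 1 was lower and 13 had a positive log2 fold change, with a median of 0.30. In the fit lacking both LG/J libraries numbered 1, 5 were higher, 1 was lower and 11 were positive. Sostdc1, which binds BMPs and also restrains Wnt signalling, was higher by edgeR (2.60 ± 0.41, adjusted p = 6.27e-06) at 0.206 to 2.06 CPM in LG/J against 0 to 0.383 CPM in SM/J. Bmper, which can bind BMPs and either block or promote their action, was higher (0.58 ± 0.14, adjusted p = 0.00227). Grem1, an antagonist of Bmp2 and Bmp4, was named after its values were seen: it was at 482 and 277 CPM in both LG/J libraries numbered 1, and the rest of LG/J did not pass 108 CPM. Its log2 fold change of 2.11 ± 0.54 (adjusted p = 0.00337) went to 0.90 ± 0.37 (adjusted p = 0.0639) without them.

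Of 8 partners and brakes of the SMADs, all were kept, 1 was lower and none higher, with a median of 0.01, or -0.06 without both LG/J libraries numbered 1 and the same counts. That was Ski, a co-repressor that binds SMADs in the nucleus, at -0.50 ± 0.09 (edgeR adjusted p = 7.2e-05). Smad4, the shared partner, and Smad7, the other inhibitory SMAD, were not called, at 0.19 ± 0.09 (adjusted p = 0.092) and -0.53 ± 0.42 (adjusted p = 0.383); they are given here, outside the naming rule, because they work beside the 10 genes. Of 8 other targets, 1 was higher and 2 were lower, with a median of -0.29. Dlx5, a homeobox gene of cartilage and bone, was lower (-0.58 ± 0.14, adjusted p = 0.0022), and Id4, the fourth ID gene, was lower too (-0.56 ± 0.14, adjusted p = 0.00279). Dlx3 was higher (0.65 ± 0.24, adjusted p = 0.041), lost in the fit lacking both LG/J libraries numbered 1 (adjusted p = 0.0589), in 4 further settings and in 19 of 32 fits with 1 library left out (adjusted p up to 0.0811). It held in the other 13, which in LG/J left out females 2, 3 and 4 and males 1, 3, 4, 5 and 8, and in SM/J females 2, 5 and 7 and males 3 and 6. Among the ID genes, Id3 and Id4 were thus called lower, and Id1 and Id2 not.

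**Figure D5:**
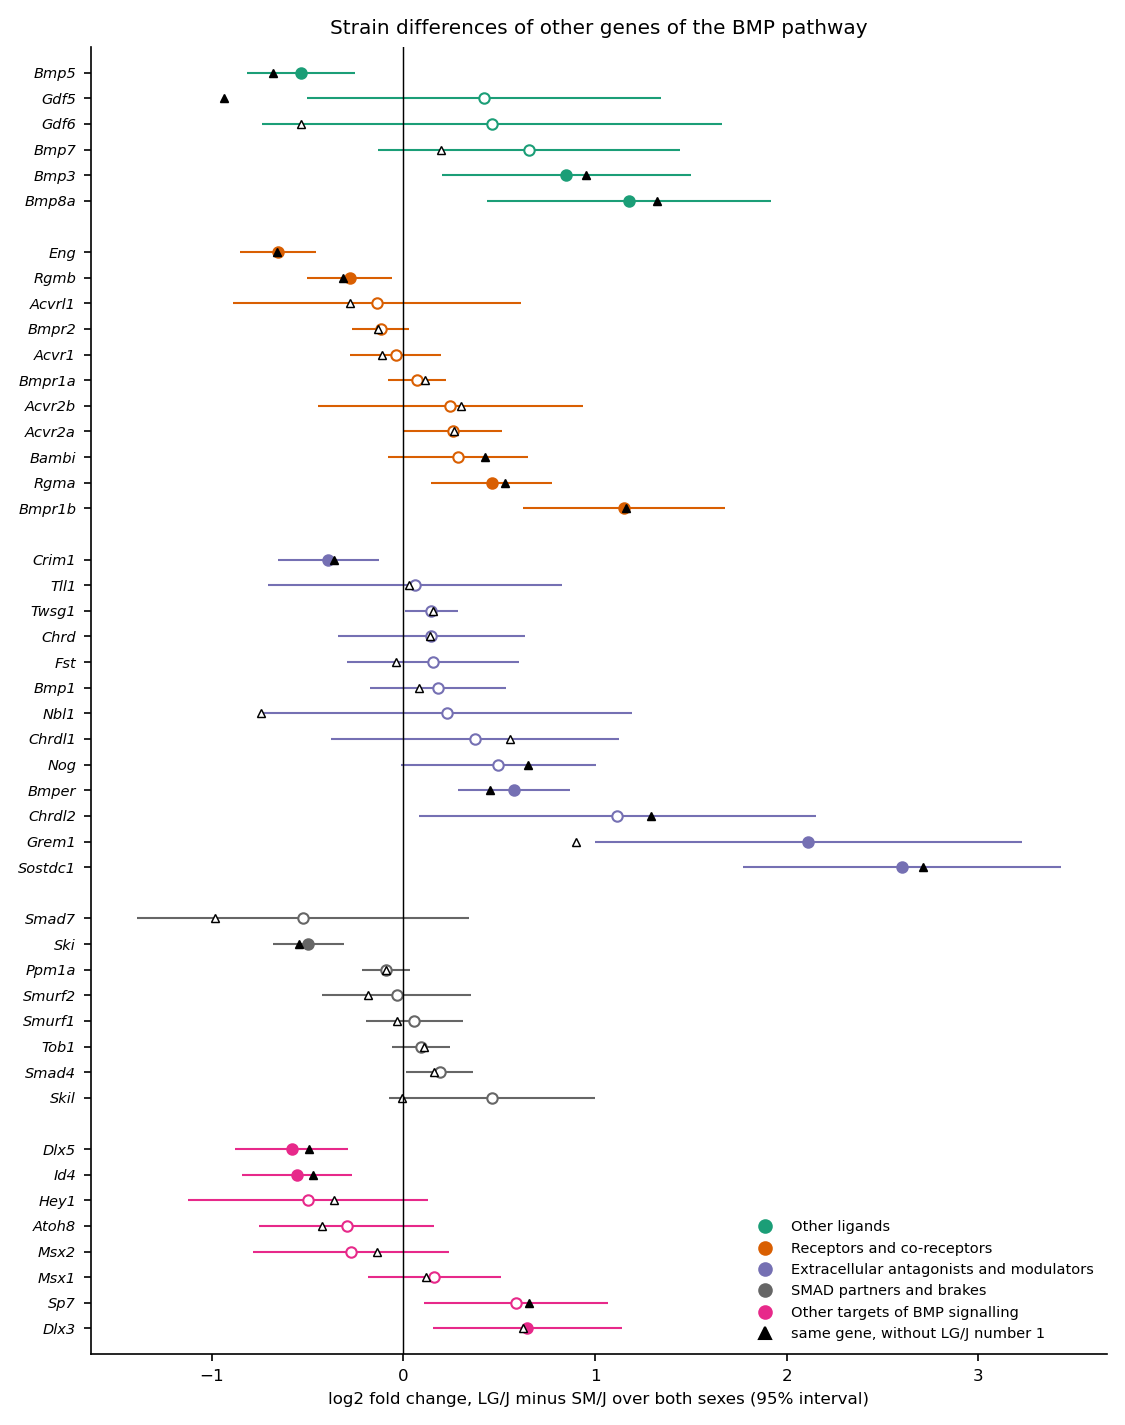
Strain differences of other genes of the BMP pathway (all but 1 of the 47 kept) as log2 fold changes of LG/J minus SM/J in both sexes together with 95% intervals, coloured by role; filled circles passed an adjusted p of 0.05, and black triangles, filled by the same rule, are these genes without both LG/J libraries numbered 1. Sostdc1 lies furthest right (2.60); Gdf5 (0.42 to -0.94) and Grem1 (2.11 to 0.90) move furthest without these libraries.

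Some markers of the culture differed between the strains as well. Over all genes tested, 16.4% were called higher in LG/J and 13.5% lower, or 17.1% and 15.1% without both LG/J libraries numbered 1. In lists this short, 1 call is close to these shares. In LG/J, 3 of 8 chondrocyte markers were higher (Acan, Sox9 and Hapln1), and 7 of 8 were higher without both LG/J libraries numbered 1. Of the 6 fibroblast and dedifferentiation markers, Acta2 was lower by -2.70 ± 0.47 on the log2 scale (edgeR adjusted p = 3.51e-05), as were Tagln and Twist1. Of 8 macrophage markers, 7 were kept and 1, Lyz2, was lower over both sexes. In females 4 were lower, or 5 without both LG/J libraries numbered 1, and in males 0 in either fit. Of all genes tested, 13.4% were called in females and 22.3% in males, in either direction. The test of the difference between sexes called 0 of the 7 macrophage markers. Without both LG/J libraries numbered 1, Cd14 over both sexes went from 0.57 ± 0.63 (edgeR adjusted p = 0.541) to -1.44 ± 0.39 (adjusted p = 0.00486), so 2 were lower over both sexes. Of 6 osteoblast markers, 1 was higher, Phex, and without these libraries Phex was not called (adjusted p = 0.0528) and Alpl and Sp7 were. Of 5 early response genes, 1 was higher, Jun, and none without these libraries. All 3 blood markers were below the filter. The part of these differences in the results for the 10 genes was not tested.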

How the data were processed

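The 10 genes, the pathway lists, the marker lists and the libraries singled out were all chosen with earlier results of these data known. The submitters' processing notes name STAR 2.0.4b, featureCounts 1.45 of Subread and the build GRCm38. Strand setting and annotation release were not given in the sources used here. For each library, the authors deposited whole-number counts per gene beside CPM and RPKM. The deposited CPM equalled the count over the library total (largest difference 1.2e-10), and the deposited RPKM equalled that CPM per kilobase (4.9e-11). All tests used the counts. Symbols were matched for 40254 of 41388 IDs, and positions are those deposited.

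The counts were filtered with filterByExpr (16136 genes kept) and, after TMM scaling, fitted with edgeR 4.0.16 (R 4.3.3), with robust quasi-likelihood, 1 mean per strain and sex group and all 32 libraries in 1 fit. Strain and sex came from the sample labels. The SE is the size of the log2 fold change over the square root of its F statistic, and 95% intervals use 28 degrees of freedom. P-values were adjusted over all genes kept, and called at 0.05. Depth was 15840330 to 25571598 counts per library. On simulated counts, for the strain comparison over both sexes among 16136 genes, 56% of 1.5-fold and 80% of 2-fold changes were called, with 8 false calls among 144; the simulated libraries were independent, which may not hold here. In the data, the same comparison gave 4827 calls and not 144, so the adjusted threshold did not fall at the same unadjusted p. The 56% and 80% therefore do not give the recovery in the data, which was not tested. Levels per length are TMM-scaled CPM per kilobase.

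Pathway genes were named with values if they were among up to 3 called genes of their list with the smallest p; exceptions are stated, and 1 gene of the lists is counted but not reported here. Alternatives were DESeq2 size factors, library size only, no filter, at least 8 libraries at a CPM of 1, limma 3.58.1 (voom, quality weights), DESeq2 1.42.0, a block for the library number, and leaving out or summing the libraries described. Promoter windows are RefSeq's, on GRCm38.p6.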

Additional observations from a re-analysis of the deposited data

Results flagged for a closer look

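Libraries far from the other 7 of their group were looked for with Dixon's test at the 95% level, in 40 sets of 8 values (10 genes in 4 groups). There were 6. At this level chance flags about 1 set in 20 if the sets are independent and the values normal. These sets share libraries, so that rate need not hold here. Bmp2 was far above the others in both LG/J libraries numbered 1, at 8.37 CPM in the female, where the next value was 2.98 CPM, and at 7.82 CPM in the male, where the next was 4.01 CPM. Id2 was also far above the others in LG/J male 1, at 515 CPM, with the next at 355 CPM. Bmp4 was at 25.3 CPM in LG/J male 6, with the next at 13.8 CPM, and at 60.7 CPM in SM/J female 1, with the next at 29.9 CPM. For LG/J male 6 the gap was 0.5265 of the range, just over the limit of 0.526. Smad1 was lowest in SM/J male 8, at 9.22 CPM, with the next at 13.2 CPM.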

How the results depend on the processing

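Of the 10 genes, 8 were called between the strains, and over all genes 4827 of 16136. Without the 6 libraries of mixed sex transcripts, 5 of the 10 were called, and over all genes 3901 of 16387. With 1 library left out in turn the count was 6 to 9, and over all genes 4493 to 5152. In females the count was 2, against 2156 over all genes. It went to 1 without the filter (2018 of 35652 over all genes), without these 6 libraries (1626 of 16387) and with 6 close pairs summed (1527 of 16328). It was 3 with DESeq2 (2545 over all genes) and with voom (2426), and 1 to 3 with 1 library left out. In males the count was 5, against 3600 over all genes. It was 6 with DESeq2 (3995), 7 with voom (5636), 6 without both LG/J libraries numbered 1 (4005), and 5 to 6 with 1 library left out. No sex or interaction call of the 10 genes arose in any setting or left-out fit. The sign changed for Id2 over both sexes (0.014 with close pairs summed, 0.008 without LG/J female 2, with -0.120 to 0.008 over fits without 1 library), Id1 in females (0.018 without the 6 libraries) and Id2 in females (-0.062 with voom, -0.022 without both LG/J libraries numbered 1, -0.024 without LG/J female 1, with -0.024 to 0.228), none of them called. Gdf5 changed sign with DESeq2 (-0.286), voom (-0.727), the replicate block (-0.506), without both libraries numbered 1 (-0.938), and without LG/J female 1 (-0.334) or LG/J male 1 (-0.189), with -0.334 to 0.500 over such fits; of these only voom and the fit without both libraries gave a call. Of the other results for single genes, 1697 kept direction and side of the threshold, 118 lost a call and 20 gained 1; the cause was not tested.

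The labels do not tie equal numbers to a shared source, and not every pair met a correlation of 0.1, so the numbers were not taken as pairs: over 48 pairs with the same number, deviations from group means correlated at a median of 0.14 (-0.45 to 0.84), 30 over 0.1, against -0.01 over 336 other pairs, and 7 of 32 libraries correlated best with their own number. With the replicate block, 5286 genes were called between strains (2677 higher, 2609 lower), and of the 10 genes Bmp4 alone left the calls (-0.69 ± 0.30, adjusted p = 0.0808). All-gene sex calls moved from 558 (215 higher in males, 343 lower) to 1029 with DESeq2, 1734 with voom, 1045 with the block, 921 without both libraries numbered 1, 123 without the filter and 31 with close pairs summed; library size alone gave 24 higher and 579 lower. Interaction calls moved from 1 to 55 with DESeq2 and 256 with voom. In males, voom called 5636 genes against 3600, and no scaling moved the median of all genes by over 0.1. Bmp6 rests on 4 to 95 reads a library, so counting error weighs most there.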
